A study of Homo sapiens with 2 samples.

Results

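The DNAJ (Hsp40) family was examined in RNA-Seq data from HEK293T cells. Members were the protein-coding genes whose symbol is DNAJA, DNAJB or DNAJC followed by a number, with or without a trailing letter, and pseudogenes were left out. The rule uses names and annotation only, and it gave 44 of the 57736 genes in the tables, with 4 genes in class A, 12 in class B and 28 in class C. The tables hold 19391 protein-coding genes in all.

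HEK293T is an established human cell line of embryonic kidney origin, transformed to express SV40 large T antigen. The cells were of wild type genotype in the labels, received no treatment and were grown in serum-containing medium, and their poly(A)+ RNA was sequenced in 2 libraries with reads of 50 nt. Both samples form 1 group of 2 replicates, so genes are compared within the line and no condition is compared with another. The labels do not say whether the replicates came from separate cultures, so the spread between them may be technical, and the identity of the line was not checked against marker genes here.

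Proteins of this family are co-chaperones of the Hsp70 chaperones. Each carries a J domain, whose conserved His-Pro-Asp motif stimulates the ATPase of Hsp70 and so locks it onto a client protein. Class A proteins have a J domain at the start, a stretch rich in glycine and phenylalanine and a cysteine-rich zinc-binding region, class B proteins lack the zinc-binding region, and class C proteins share only the J domain, placed anywhere in the protein. Class A and B proteins mostly bind clients themselves, while many class C proteins bring Hsp70 to a particular place, such as a membrane, a ribosome or a clathrin coat.

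The sequences that define the family were read from the canonical coding sequences of GENCODE release 44 on GRCh37. Codons for His-Pro-Asp were present in 43 of 44 members, in 4 of 4 class A genes, in 11 of 12 class B genes and in 28 of 28 class C genes. The exception was DNAJB13, a protein of sperm flagella. A window of 60 coding bases follows for 10 members, chosen because the results on levels turn on them. The capitals mark the 9 bases of the His-Pro-Asp codons, and the coordinates after the windows are those of the capitals.
DNAJA1: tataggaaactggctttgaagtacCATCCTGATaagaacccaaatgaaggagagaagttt
DNAJA4: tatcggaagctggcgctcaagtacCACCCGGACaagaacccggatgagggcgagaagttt
DNAJB1: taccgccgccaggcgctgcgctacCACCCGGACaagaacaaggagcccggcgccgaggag
DNAJB6: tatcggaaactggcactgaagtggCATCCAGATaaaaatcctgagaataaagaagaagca
DNAJB7: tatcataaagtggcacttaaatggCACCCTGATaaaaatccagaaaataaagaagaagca
DNAJB8: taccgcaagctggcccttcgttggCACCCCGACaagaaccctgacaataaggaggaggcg
DNAJC8: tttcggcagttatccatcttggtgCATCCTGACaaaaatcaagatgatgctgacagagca
DNAJC19: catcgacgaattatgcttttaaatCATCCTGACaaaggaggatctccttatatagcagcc
DNAJC15: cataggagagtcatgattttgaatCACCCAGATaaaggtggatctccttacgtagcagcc
DNAJC13: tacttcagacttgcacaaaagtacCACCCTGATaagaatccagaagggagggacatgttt

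These codons lie in coding exons at chr9:33026582-33026590 on the plus strand for DNAJA1 and at chr15:78557205-78557213 on the plus strand for DNAJA4. Those of the class B members lie at chr19:14629060-14629068 on the minus strand for DNAJB1, chr7:157155880-157155888 on the plus strand for DNAJB6, chr22:41257900-41257908 on the minus strand for DNAJB7 and chr3:128181990-128181998 on the minus strand for DNAJB8. Those of the class C members lie at chr1:28537125-28537133 on the minus strand for DNAJC8, chr3:180703718-180703726 on the minus strand for DNAJC19, chr13:43659962-43659970 on the plus strand for DNAJC15 and chr3:132213984-132213992 on the plus strand for DNAJC13. Over the 42 members whose window was read, the same amino acids were written with 13 different spellings, of which CACCCAGAC was the commonest, in 8 members.

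The place of the motif varied more in class C than in classes A and B. The His codon stood at codon 34 to 121 in class A (median 35), at codon 31 to 138 in class B (median 32) and at codon 31 to 1332 in class C (median 78). It fell within the first 100 codons in 3 of 4 class A genes, 8 of 12 class B genes and 18 of 28 class C genes. It lay latest in DNAJC13, an endosomal protein of 2243 residues, and in DNAJC6, the auxilin that uncoats clathrin vesicles, it stood at codon 934 of 970. The repeat Cys-x-x-Cys-x-Gly-x-Gly, which marks the zinc-binding region, was found 3 times in DNAJA1, DNAJA2 and DNAJA4 and 4 times in DNAJA3, and in 0 class B and 0 class C genes. The coding sequence lay in a single exon in 4 members, DNAJB7, DNAJB8, DNAJC28 and DNAJC30.

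**Figure D1:**
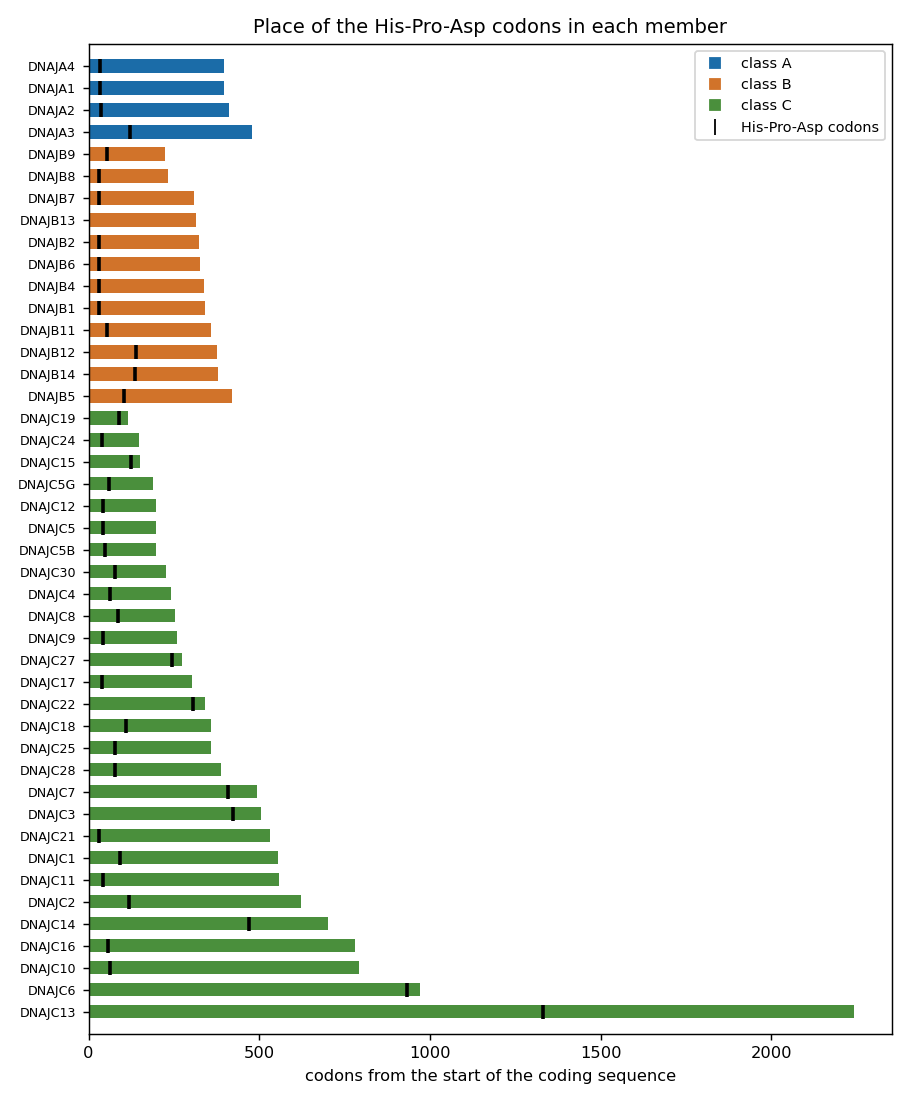
Each bar is the coding sequence of a member, in codons from its start, coloured by class, and the black tick marks the His-Pro-Asp codons. The ticks of class A and B lie between codon 31 and 138, those of class C range to codon 1332, and DNAJB13 has no tick.

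Most of the family was expressed. TPM (a transcript's share of all transcripts, corrected for its length and set to a fixed sum per library) was at least 1 in both replicates for 38 of 44 members, or 86.4%, and such a gene is called detected. The same held for 63.7% of all protein-coding genes. Class A had 4 of 4 members detected, class B 9 of 12 and class C 25 of 28. The libraries held 10593491 and 10104118 estimated counts, of which 0.256% and 0.257% fell in the family, and the family's TPM values summed to 1916 in replicate 1 and 1839 in replicate 2. A count of 0 allows a true value of up to 3, or 0.283 CPM (counts scaled to library size) in replicate 1 and 0.297 in replicate 2, and these limits cover counting error only.

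The total was spread unevenly over the members. A mean TPM above 100 was found in 4 of 44 members and in 6.81% of all protein-coding genes. Of the other members, 27 lay from 10 to 100, 7 were detected below 10 and 6 were not detected. The 4 highest held 46.0% of the family's TPM and the 10 highest 69.5%. The median of the detected members was 23.1 TPM, against 21.2 TPM for the 12345 detected protein-coding genes.

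The highest member was DNAJC8, a protein associated with the spliceosome, whose gene lies at chr1:28525967-28559540. Its TPM was 285 in replicate 1 and 279 in replicate 2 (282 ± 3.62, SD, n = 2). DNAJA1, the main cytosolic class A co-chaperone, at chr9:33025271-33039905, followed with a TPM of 235 and 238. DNAJB6, which suppresses the aggregation of polyglutamine proteins, at chr7:157128075-157210133, had 184 and 170. DNAJC7, a tetratricopeptide protein that binds both Hsp70 and Hsp90, at chr17:40128439-40173394, had 181 and 156. Within each replicate DNAJC8 was above DNAJA1, DNAJA1 above DNAJB6 and DNAJB6 above DNAJC7. The ranges of DNAJB6 and DNAJC7 over the replicates overlapped, and the other ranges did not.

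The next 6 members lay between 53.5 and 94.5 TPM. DNAJB1, the main heat-inducible class B co-chaperone, had a TPM of 94.5 in replicate 1 and 84.5 in replicate 2. DNAJC2, which works at the ribosome as part of the ribosome-associated complex, had 85.3 and 84.1. These values overlap. DNAJA3, a mitochondrial class A protein, had a TPM of 71.1 and 71.0, and DNAJA2, a cytosolic class A protein, had 67.4 and 70.7. DNAJC11 of the mitochondrial inner membrane organising system had 72.6 and 63.7, and DNAJC21, a factor of large ribosomal subunit maturation, had 62.1 and 53.5. The order of DNAJA2 and DNAJC11 was not the same in the replicates.

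Neighbours in the order were often not told apart. Of 37 neighbouring pairs of detected members, the ranges of the replicates were separate in 16. The authors' 95% credibility intervals do not describe the sharing of reads alone. The count of DNAJA2 had a posterior SD of 0 in both replicates, yet its interval was 58.4 to 66.6 TPM in replicate 1. The intervals were separate in both replicates in 5 pairs. These were DNAJC8 over DNAJA1, DNAJA1 over DNAJB6, DNAJC7 over DNAJB1, DNAJC11 over DNAJC21, and DNAJC6 over DNAJC30. The intervals belong to a posterior mean and not to the TPM itself, and the TPM of DNAJC8, DNAJA1 and DNAJA2 lay outside its interval in both replicates.

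**Figure D2:**
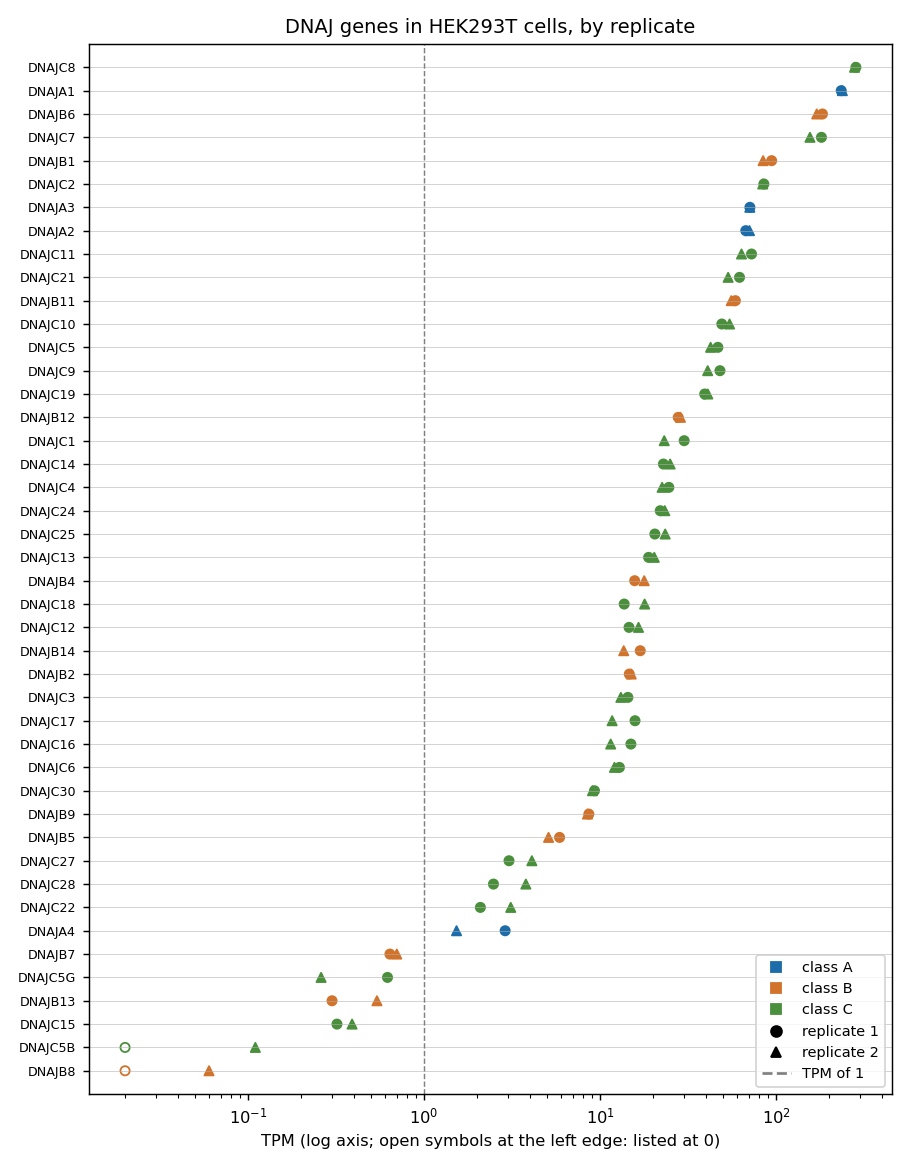
The TPM of each of the 44 members is shown on a log axis for replicate 1 (circles) and replicate 2 (triangles), coloured by class, with open symbols at the left edge for values listed at 0. The 38 detected members lie to the right of the dashed line at a TPM of 1, and the symbols of both replicates mostly overlap.

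The classes differed in level and in number. The median TPM of class A was 69.2 in replicate 1 and 70.8 in replicate 2, that of class B 15.2 and 14.3, and that of class C 19.7 and 21.4. The median of all protein-coding genes was 6.44 and 6.37. In both replicates the order was A, C and B. Class A has only 4 genes, of which 3 lay between 67.4 and 238 TPM, while DNAJA4 had a TPM of 2.89 and 1.53. Over detected members alone the medians were 70.0, 16.8 and 22.7 TPM for classes A, B and C. Above 21.2 TPM, the median of the detected protein-coding genes, lay 3 of 4, 4 of 9 and 14 of 25 detected members. Over all classes these were 21 of 38. Over the members with whole counts in both replicates (1 in class A, 6 in class B and 15 in class C), the median of class B was the higher one, with a log2 ratio of B to C of 0.24 in place of -0.48.

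By sum, class C, with 28 of the 44 members, held the largest share. The mean TPM per gene was 94.0 and 95.4 in class A, 35.6 and 33.4 in class B, and 39.7 and 37.8 in class C. Class C took 57.8% ± 0.410 of the family's TPM (SD, n = 2), class B took 22.0% ± 0.377 and class A 20.2% ± 0.786. In estimated counts, which grow with transcript length, the shares were 60.1% ± 0.496, 20.0% ± 0.477 and 20.0% ± 0.0193. The shares of classes A and B differed by more than the spread of the replicates in TPM, and could not be told apart in counts. Without DNAJC8 the share of class C in TPM was 50.3%. The median number of estimated counts behind a member was 1121 and 1096 in class A, 140.5 and 146 in class B, and 278 and 285 in class C.

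**Figure D3:**
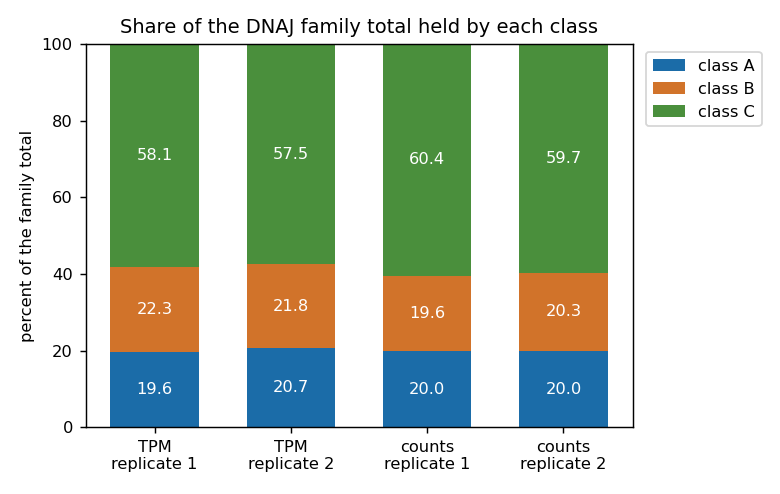
Stacked bars give the percent of the family total in class A, B and C for each replicate, in TPM on the left and in estimated counts on the right, from 0 to 100. Class C holds 57.5 to 60.4 in every bar, and classes A and B hold 19.6 to 22.3 each.

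Scaling by length changed the order at the top. In estimated counts DNAJA1 came first, with 3123 in replicate 1 and 2986 in replicate 2, and DNAJC8 second, with 2966 and 2793. The effective length that the authors' tables gave was 1783 and 1745 nt for DNAJA1 and 1397 and 1391 nt for DNAJC8. The log2 ratio of DNAJC8 to DNAJA1 was therefore 0.25 in TPM and -0.0853 in counts. DNAJC5, the cysteine string protein of secretory vesicles, had 1561 and 1413 counts, the fifth highest, and a TPM of 46.8 and 42.5. Over the 44 members, Spearman's rho of mean TPM with mean counts was 0.923, as a description across genes.

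Members were then grouped by where their proteins are known to work. The 11 cytosolic members were all detected and held 43.6% ± 0.175 of the family's TPM (SD, n = 2), or 37.5% of its counts. Besides DNAJA1, DNAJA2, DNAJB1, DNAJB6 and DNAJC7, they include DNAJB4, with a TPM of 15.7 and 17.8, and DNAJB2, a neuronal co-chaperone that also binds ubiquitin, with 14.7 and 15.1. DNAJC24, needed for the diphthamide modification of elongation factor 2, had 22.0 and 23.3. DNAJC12, a co-chaperone of the aromatic amino acid hydroxylases, had 14.6 and 16.6. DNAJB5 had 5.89 and 5.10. The range of mean TPM in this group ran from 2.21 for DNAJA4 to 237 for DNAJA1.

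The 5 members of the nucleus and the ribosome were all detected and held 25.7% ± 0.241 of the TPM. DNAJC8, DNAJC2 and DNAJC21 are given above. DNAJC9, a histone chaperone as well as a co-chaperone, had a TPM of 48.0 and 40.9. DNAJC17, a protein linked to splicing, was lowest in this group with 15.8 and 11.7, on 99.3 and 72.1 counts.

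All 11 members of the endoplasmic reticulum were detected, between 8.57 and 57.2 in mean TPM, and held 14.7% ± 0.320 of the TPM and 19.3% of the counts. DNAJB11, which assists BiP in the lumen, had a TPM of 58.8 and 55.7. DNAJC10, a disulfide reductase that acts in degradation of misfolded proteins, had 49.2 and 54.5. DNAJC3, an inhibitor of the kinase PERK when found in the cytosol and a BiP co-chaperone in the lumen, had 14.4 and 13.1. DNAJB9, which restrains the stress sensor IRE1, was lowest with 8.64 and 8.49. The membrane proteins DNAJB12 and DNAJB14, which act in degradation of membrane clients, had 27.8 and 28.6, and 16.9 and 13.6. The remaining 5, DNAJC1, DNAJC14, DNAJC16, DNAJC18 and DNAJC25, had means from 13.2 for DNAJC16 to 26.6 for DNAJC1.

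Mitochondrial members were detected in 6 of 7 cases and held 11.5% ± 0.0193 of the TPM. DNAJC19, a partner of the import motor at the inner membrane, had a TPM of 39.3 and 41.0. DNAJC4 had 24.6 and 22.5, DNAJC30 had 9.30 and 9.06, and DNAJC28 had 2.48 and 3.79. The member not detected was DNAJC15, another protein of the inner membrane and a close relative of DNAJC19, with 0.32 and 0.39 on 6 and 7 counts.

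The 4 members of vesicles and endosomes held 4.28% ± 0.0278 of the TPM and 10.9% of the counts. Their transcripts were long, with an effective length of 7047 and 6824 nt for DNAJC13 and of 4475 and 4628 nt for DNAJC5. DNAJC13 had a TPM of 18.9 and 20.3 on 993 and 997 counts. DNAJC6 had 12.9 and 12.1, and its broadly expressed relative GAK, whose symbol keeps it outside the family, had 56.4 and 47.2. DNAJC27, a small GTPase with a J domain, was lowest with 3.04 and 4.10.

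DNAJC22, which was left out of the groups, had a TPM of 2.09 and 3.11. Of the 5 members known mainly from testis, 0 were detected, and together they held 0.0861% of the TPM. DNAJB7 had a TPM of 0.64 and 0.70 on 12.0 and 12.7 counts, DNAJC5G 0.62 and 0.26 on 3 and 1 counts, and DNAJB13 0.30 and 0.54 on 4 and 4.34 counts. DNAJC5B was listed at 0 and 0.11 on 0 and 2 counts, and DNAJB8 at 0 and 0.06 on 0 and 1 counts. The exact 95% Poisson interval of the summed count was 16.2 to 36.9 for DNAJB7 and 6.92 to 22.2 for DNAJC15. The counts of DNAJB7 carried a posterior SD of 15.2% and 16.5%, which the interval leaves out, and those of DNAJC15 a posterior SD of 0. It was 0.0253 to 5.57 for DNAJB8, where the depth does not separate a low level from none.

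**Figure D4:**
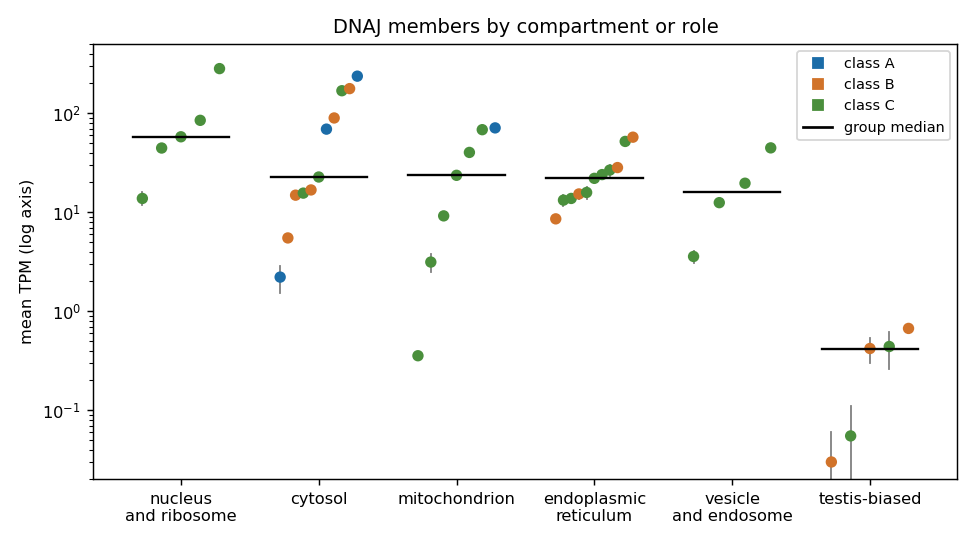
Mean TPM on a log axis is shown for each member within its compartment or role, with grey lines spanning the replicates, colours for the class and a black bar at the median of each group. The 5 testis-biased members and DNAJC15 of the mitochondrial group lie below a TPM of 1, the other members shown lie at 2.21 or above, and lines that reach the lower edge run to 0.

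Close relatives within the family were expressed at unequal levels. The translated coding sequences of DNAJA1 and DNAJA4 were identical at 74.2% of 396 aligned residues, and DNAJA1 had a TPM 81.3 times that of DNAJA4 in replicate 1 and 156 times in replicate 2. DNAJA1 and DNAJA2 were identical at 57.2% of residues, and DNAJA1 was 3.43 ± 0.0818 times higher (SD, n = 2). In the windows above, the J domains of DNAJA1 and DNAJA4 encode the same motif in CATCCTGAT and CACCCGGAC. DNAJB6 was 265 ± 30.8 times higher than DNAJB7, which shares 61.3% of residues with it, and 11.9 ± 0.846 times higher than DNAJB2, which shares 56.2%. The fold over DNAJB7 rests on 12.0 and 12.7 counts of that gene, and its SD does not cover their counting error.

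DNAJC19 and DNAJC15, which share 58.3% of 115 aligned residues, differed by 123 times in replicate 1 and 105 times in replicate 2. These folds rest on 6 and 7 counts of DNAJC15 and are imprecise. Of the relatives of DNAJB1, DNAJB4 shares 68.6% of residues and DNAJB5 66.4%. DNAJB1 was 5.37 ± 0.892 times higher than DNAJB4 and 16.3 ± 0.370 times higher than DNAJB5. Among the cysteine string proteins, DNAJC5B shares 68.2% and DNAJC5G 54.3% of residues with DNAJC5, and no fold is given because their counts were at or below 3. Of the pairs with a fold, DNAJB12 and DNAJB14 were the closest in level, at 1.87 ± 0.322 times, with 52.3% of residues shared.

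Both replicates gave nearly the same picture of the family. Over 44 members the replicates correlated with a Pearson's r of 0.995 on log2(TPM + 1) and a Spearman's rho of 0.985, as descriptions across genes, which are not independent replicates. The median absolute log2 ratio between replicates was 0.14 in TPM over the detected members, and 0.14 over all detected protein-coding genes, and the members had 0.09 in counts. For each gene the counts of the libraries were set against each other in an exact binomial test (two-sided, TMM-scaled library sizes, Benjamini-Hochberg adjustment). This test compares these libraries and not conditions. Of 40 members tested, 0 differed, against 696 of all 17920 genes tested, or 3.88%. At an unadjusted p under 0.05 there were 4 members, or 10%, against 13.3% of all genes. By edgeR's exact test with a common dispersion there were 0 members adjusted and 2 unadjusted. That dispersion was estimated from the same 2 libraries and takes in their difference, so fewer calls are built in and the test is not a separate check.

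Of the members nearest to a difference, DNAJA4 is cytosolic, and DNAJC10, DNAJB14 and DNAJB9 belong to the group of the endoplasmic reticulum. DNAJA4 had 43.8 and 18.9 counts (log2 ratio of replicate 2 to replicate 1 of -1.11, exact binomial adjusted p = 0.0749). DNAJC10 had 1320 and 1397 counts (log2 ratio 0.16, exact binomial adjusted p = 0.0812). DNAJB14 had 278 and 325 counts (log2 ratio 0.30, exact binomial adjusted p = 0.151), and DNAJB9 had 60.7 and 81.9 (log2 ratio 0.50, exact binomial adjusted p = 0.353). The log2 ratios are scaled to library size.

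For 8 of the 38 detected members the replicates differed in the transcript length that the tables assign. The share of all protein-coding genes with such a difference was not computed, so the number is not read as a trait of the family. The log2 ratio of effective length was beyond 0.25 in either direction for DNAJB5, DNAJB9, DNAJB14, DNAJC1, DNAJC14, DNAJC16, DNAJC18 and DNAJC22. In all 8 the TPM ratio had the opposite sign. TPM divides a count by effective length, so with similar counts this sign follows largely from the calculation and is not a separate result. DNAJC1 had 279 and 281 counts, while its effective length was 1244 and 1689 nt and its TPM 30.1 and 23.2. DNAJB9 had more counts in replicate 2, a length of 941 and 1343 nt and a nearly equal TPM. DNAJB14 had a log2 ratio of 0.30 in counts and -0.31 in TPM, with a length of 2204 and 3319 nt. DNAJC22 had 37 and 38 counts, with a length of 2370 and 1704 nt.

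**Figure D5:**
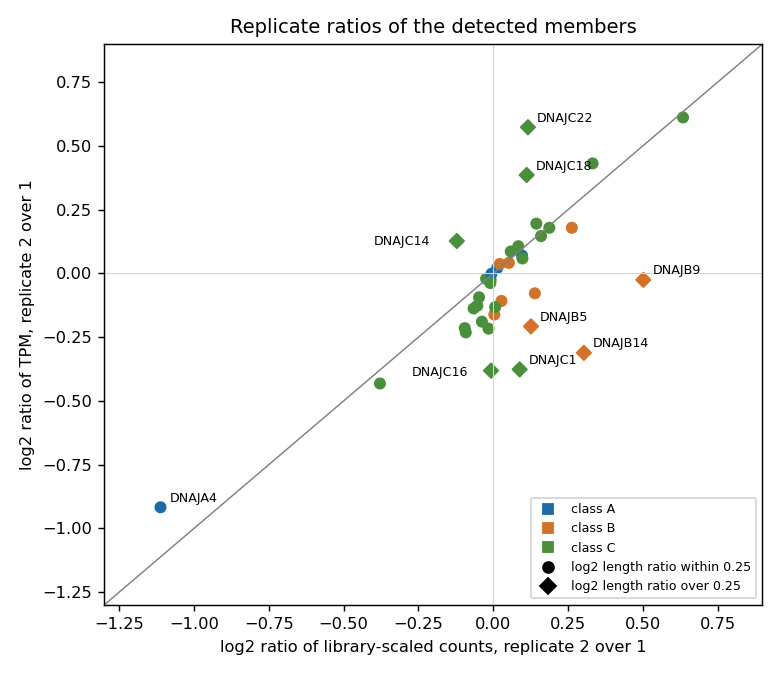
The log2 ratio of replicate 2 to replicate 1 is plotted for the 38 detected members, with counts scaled to library size on the horizontal axis and TPM on the vertical axis, and a diagonal line where both are equal. The 8 members whose effective length differed by over 0.25 are diamonds and lie off the diagonal, while DNAJA4 lies farthest down at -1.11 and -0.92.

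Counts were whole in both replicates for 22 members, and the authors' posterior SD was 0 in both for 11 detected members. It exceeded 5% of the count for 1 detected member, DNAJC25, where it was 14.8% of 277 counts in replicate 1 and 18.2% of 290 counts in replicate 2. In replicate 2 the TPM of DNAJC25, 23.5, also lay outside its interval of 6.58 to 23.3. DNAJC25 shares 13.7% of its exonic bases with the read-through gene DNAJC25-GNG10, which had 2.49 and 1.05 counts. Exons of 24 of the 44 members overlap those of another gene in the tables, on the same strand for 8 and on the opposite strand for 19. The same share over all genes was not computed, so the number is not read as a trait of the family. The overlap covered 56.5% of the exonic bases of DNAJC9, which runs against FAM149B1, and 20.9% of those of DNAJC2, which runs against PMPCB. Among members not detected, it covered 23.9% for DNAJB7, which runs against XPNPEP3, and 28.8% for DNAJB13, which runs against a gene with no symbol. The strand setting of the counting is not known here, so reads of these pairs may be exchanged.

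Few reads were assigned to processed copies of members. The tables hold 33 DNAJ pseudogenes, among them DNAJB3, which the annotation lists as a transcribed processed pseudogene. Of these 18 had 0 counts in both replicates and 3 were detected, and together they took 0.179% and 0.163% of the counts of the family and its pseudogenes. DNAJC8P2 was the highest, with a TPM of 5.51 and 3.94, and DNAJC19P5 and DNAJC8P4 were the others. The posterior SD of the count was 2.53 and 2 for DNAJC8P2 and 0.18 and 0.21 for DNAJC8P4. It was 0 in both replicates for DNAJC19P5, whose 3 and 6 counts were whole. Some copies listed at 0 counts had a larger posterior SD, with 7.65 and 7.88 for DNAJB6P1 and 6.2 and 5.54 for DNAJC19P9. A listed 0 can therefore depend on how reads were shared with a member.

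The partners of the family were measured in the same libraries. Of 32 genes for Hsp70 chaperones, their nucleotide exchange factors, other cofactors and J proteins with other symbols, 29 were detected. The 12 Hsp70 genes, of which 9 were detected, summed to 2920 and 2780 TPM, which is 1.52 ± 0.00887 times the sum of the family (SD, n = 2). HSPA8, the constitutive cytosolic Hsp70, had a TPM of 1411 and 1410, HSPA9 of mitochondria 621 and 547, and HSPA5, the BiP of the endoplasmic reticulum, 202 and 178. HSPA1A and HSPA1B are near-identical, so single values are uncertain, and their sum was 551 and 504. HSPA6, HSPA1L and HSPA12B were not detected.

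All 14 exchange factors were detected and summed to 1052 and 1022 TPM, or 0.552 ± 0.00453 of the family. Those highest were BAG6 with a TPM of 217 and 223, HSPH1 with 156 and 160, and HSPA4 with 153 and 162. The 3 J proteins with other symbols on the list, SEC63, GAK and HSCB, were detected and summed to 0.103 ± 0.00330 of the family. SEC63, the J protein of the translocon, was highest with 125 and 117. Between the libraries, 4 of 30 partner genes tested differed by the exact binomial test, against 0 of 40 members and 3.88% of all genes. They were HSPA5 (exact binomial adjusted p = 5.00e-06), HSPA1A, HYOU1 and STIP1, and all 4 were lower in replicate 2. The call of HSPA1A rests on how reads were shared with HSPA1B, since its 65.6 and 20.3 counts carried a posterior SD of 21.3 and 11.8 that the test leaves out, and HSPA1B itself did not pass (exact binomial adjusted p = 0.385).

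Letters of the heat shock element, the binding motif of heat shock factors, were looked for in promoters of the RefSeq annotation (GRCh38.p14, 250 bases before to 50 after the start), since the family holds known heat shock genes. The motif searched was GAANNTTCNNGAA, or TTCNNGAANNTTC on the other strand, with every fixed letter required. Of 40 members matched, 2 held it, or 5%, and of all 27305 promoters 133 held it, or 0.487%. They were DNAJB6 and DNAJA1, and not DNAJB1, the heat-inducible co-chaperone named above. Elements that depart from these letters or lie outside the window were not counted. The lack of a match therefore does not show that the DNAJB1 promoter has no heat shock element. A link of the motif to level was not tested. The matches are shown with the letters in capitals.
DNAJB6: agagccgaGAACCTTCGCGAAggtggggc
DNAJA1: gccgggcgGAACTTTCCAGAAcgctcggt

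The DNAJB6 window lies at chr7:157336865-157336893 on the plus strand, with the match starting 131 bases before the start. That of DNAJA1 lies at chr9:33025268-33025296 on the plus strand, with the match starting 3 bases after the start, both in GRCh38.p14 and not in the build of the tables. A match is a description of letters, and binding was not measured.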

How the data were processed

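Poly(A)+ RNA of 2 HEK293T replicates, which form 1 group by their labels, was sequenced with 50 nt reads. Per the submitters' processing notes, the authors used Trimmomatic 0.36, STAR 2.6.1c and RSEM 1.3.1 with GRCh37. The study's methods name featureCounts and Ensembl release 87, whereas the columns of the tables are those of RSEM. The deposited estimated counts (expected counts) share a read that fits several genes among them. The deposited TPM values correct counts for length and give each library an equal sum, and the deposited FPKM values correct for length and for sequencing depth. The posterior SD of a count, posterior mean TPM and interval bounds are scores deposited by the authors. A pooled table by the authors held the sum of the replicates' counts for 44 of 44 members, within 1% or 1 count, and was not otherwise used.

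Symbols, types and coordinates came from GENCODE release 44 on GRCh37, which matched 96.1% of 57736 identifiers. The members, role groups, partner list, relatives, pairs and promoter motif were chosen with earlier results of these data known. Every member could be named, with the value in each replicate for the highest of each class, the 10 highest and all not detected, and other genes were named only as partners, pseudogene copies or overlapping genes. Counts were rounded for the binomial test (scipy 1.17.1), run on genes with 10 or more counts in sum, with scaling from edgeR 4.0.16 in R 4.3.3. The test was also run on simulated counts that held counting error only, scaled by total counts. That run cannot show how the test behaves where libraries differ by more than counting error. A gene of the partner list is not reported here and was left out of the counts and sums of that list. Log2 count ratios used 0.5 added counts. Coding sequences were translated and aligned with Biopython (BLOSUM62, gap penalties 11 and 1, free end gaps). Alternatives were other thresholds, units, filters, normalizations and pseudocounts, and leaving out each replicate. Depth was about equal in both libraries, and with 2 samples an SD is itself imprecise.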

Additional observations from a re-analysis of the deposited data

How the results depend on the processing

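With 2 libraries of 1 group, no alternative tests a condition. No paired analysis was possible because there is a single group. The number of members detected was 34 to 42 under other thresholds and units, and 38 without either replicate. The log2 ratio of the median of class A to class C, 1.77 in TPM, was 1.98 in estimated counts, 1.63 over detected members, 1.70 with the other J proteins added to class C and 2.36 over members with whole counts, where class A is DNAJA2 alone. That of class B to class C, -0.48, was -0.98 in estimated counts and turned to 0.24 over members with whole counts. In estimated counts the shares of classes B and C were 20.0% and 60.1%, and that of the cytosolic group was 37.5%. Without DNAJC8 the shares of classes A, B and C were 23.8%, 25.9% and 50.3%. The log2 ratio of DNAJC8 to DNAJA1, 0.25, turned to -0.0853 in estimated counts, which are not scaled by length. Pearson's r of the replicates was 0.979 with a pseudocount of 0.01, which gives weight to members with few counts. The number of members that differed between the libraries was 0 under each of 6 other settings, while all genes called numbered 71 with whole counts only and 217 by edgeR's exact test, against 696. The dispersion in edgeR's test came from the same 2 libraries, which lowers its number of calls. The summed counts of DNAJB13, DNAJC5G, DNAJC5B and DNAJB8, 8 or fewer each, have counting intervals that overlap, so these members cannot be ordered at this depth.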
